A study of Mus musculus with 1989 samples.

Results

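D-type cyclins and regulators of exit from G1 were described in mouse thymocytes through 8 genes chosen by name: the cyclins Ccnd2 and Ccnd3, their kinases Cdk6 and Cdk4, the CDK inhibitors Cdkn1b and Cdkn2d, and the antiproliferative genes Btg1 and Btg2. All 8 were among the 8846 genes of the scRNA-seq table. Of the 138317 peaks of the scATAC-seq table, 302 lay nearest to the transcription start of 1 of the 8 genes, and 86 of these did not overlap one another. The thymocytes came from male C57BL/6 mice, an inbred strain, labelled as 7 weeks old, and no genotype or treatment differed between samples. One droplet-based 3′ library held 1993 cells, and scATAC-seq covered 182 cells sorted as DN, 125 as DP, 119 as CD4 and 116 as CD8, together with 1084 plated total thymocytes. No animal is named for a cell. The library and each sort therefore count as 1 sample, no test or p-value was computed, and every interval covers counting error only.

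A D-type cyclin bound to Cdk4 or Cdk6 phosphorylates the retinoblastoma protein early in G1 and so opens the way to S phase. The INK4 protein encoded by Cdkn2d binds Cdk4 and Cdk6 and blocks them, p27, the product of Cdkn1b, holds cyclin-bound CDK complexes inactive, and the Btg proteins recruit the CCR4-NOT deadenylase to mRNAs. In the thymus, CD4-CD8- double-negative (DN) cells that pass β-selection divide as immature single-positive (ISP) and double-positive blast (DPbla) cells, then stop dividing as rearranging double-positive cells (DPre), and are selected (DPsel) before becoming CD4 or CD8 single-positive (SP) cells.

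The deposited log2 values were quantile normalised, which keeps the order of genes in a cell. Ranking the distinct values of each cell gave whole steps that stood in for molecule counts, and random thinning left 1300 steps in every cell, the lowest total before thinning being 1356 and the highest 22539. A level below is the mean number of thinned steps per cell, with an exact Poisson 95% interval. It is a relative share of a cell's summed steps, a stand-in for a share of its RNA, not an amount per cell. Clusters were built without the 8 genes and the pathway list described further on, so these genes did not place the cells. Marker genes named 16 clusters as 9 classes: DN-like (79 cells), ISP-like (161), DPbla-like (491), DPre-like (496), DPsel-like (322), CD4sp-like (229), CD8sp-like (148), NCL-like (31), with natural killer markers, and APC-like (36), with antigen-presenting markers. Median step totals before thinning ran from 1938 in NCL-like to 10070 in ISP-like cells. The names ISP-like and DPbla-like were kept for clusters with Mki67, a proliferation marker, in at least 50% of cells. Mki67 was detected before thinning in 74.5% of ISP-like and 85.1% of DPbla-like cells, against 16.1% of DPre-like cells. DPre-like cluster 8, led by Hist1h2bc, Ccnb2 and Cenpa, lay nearest the limit, with Mki67 in 44.2% of its cells. The DN-like cluster was led by T cell receptor gamma constant genes as well as Il2ra and Hes1, and Cdk6 was itself among its leading genes.

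The 2 D-type cyclins had opposite patterns across the stages. Ccnd2 was at 0.772 steps per cell in DN-like cells (0.591 to 0.992), 0.112 in ISP-like cells (0.0663 to 0.177), 0.0122 in DPbla-like cells and 0.0222 in DPre-like cells. It was then at 0.391 in DPsel-like cells (0.326 to 0.466), 1.47 in CD4sp-like cells (1.31 to 1.63) and 1.19 in CD8sp-like cells (1.02 to 1.38). Ccnd2 was thus high at both ends of the pathway and close to the floor in the DPbla-like and DPre-like cells, where 6 and 11 steps were counted in all. The intervals of the CD4sp-like and CD8sp-like levels overlapped. After thinning it was detected in 50.6% of DN-like, 1.22% of DPbla-like, 2.02% of DPre-like and 66.4% of CD4sp-like cells, and before thinning in 78.5%, 8.15%, 5.04% and 77.7%.

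Ccnd3, the cyclin known to be needed for the expansion of thymocytes after β-selection, was at 0.722 steps per cell in DN-like cells (0.546 to 0.935) and 1.31 in ISP-like cells (1.14 to 1.5). Its highest levels were 2.40 among DPbla-like cells (2.26 to 2.54) and 2.35 among DPre-like cells (2.22 to 2.49), whose intervals overlapped. It was at 1.17 in DPsel-like cells (1.05 to 1.29), 0.838 in CD4sp-like cells (0.724 to 0.966) and 0.865 in CD8sp-like cells (0.722 to 1.03). Ccnd3 was therefore lowest where Ccnd2 was high, and it was as high in the DPre-like clusters, from 2.05 to 2.57, as in the DPbla-like clusters, from 1.95 to 2.68.

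**Figure D1:**
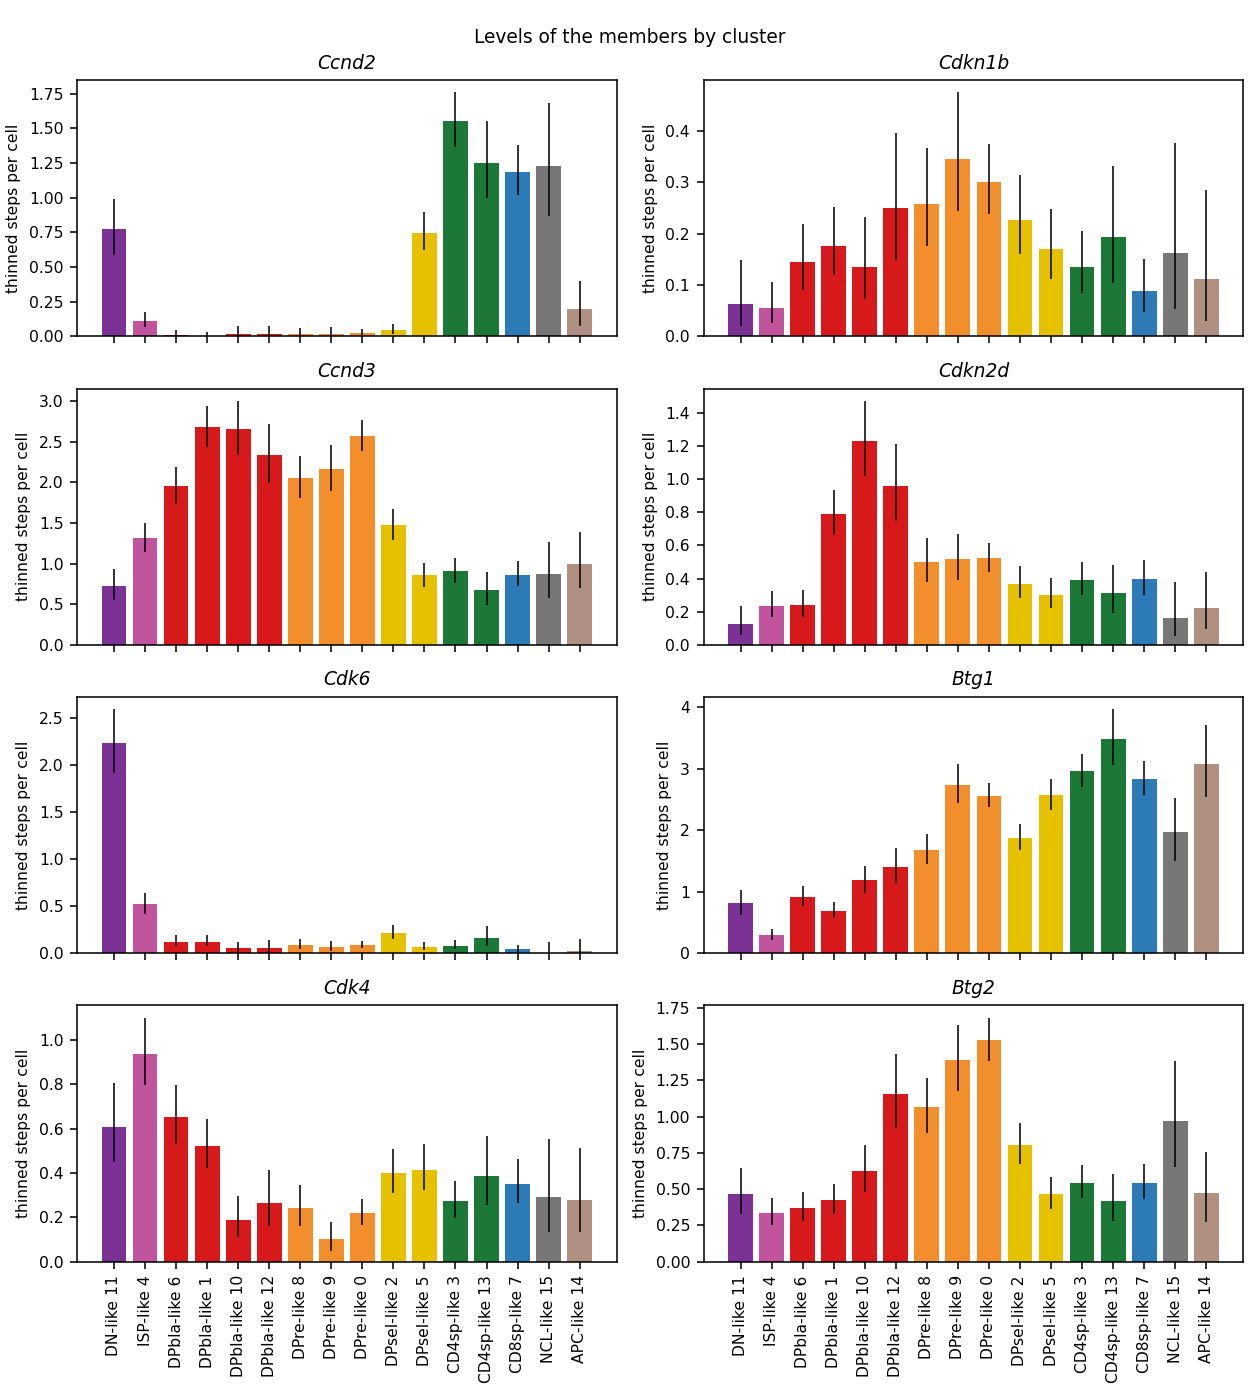
Thinned steps per cell of the 8 genes in each of the 16 clusters, 1 panel per gene, with exact Poisson 95% intervals as error bars. Ccnd2 is near 0 in the DPbla-like and DPre-like clusters, where Ccnd3 is highest, and Cdk6 stands highest in the DN-like cluster at 2.24 steps per cell.

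The share of Ccnd2 in the summed steps of Ccnd2 and Ccnd3 was computed for each class. It is compared between classes only, since capture may differ between the genes. The share was 51.7% in DN-like cells (exact binomial 95% interval 42.3% to 61.0%), 7.86% in ISP-like cells (4.72% to 12.1%), 0.507% in DPbla-like cells (0.186% to 1.10%) and 0.933% in DPre-like cells (0.467% to 1.66%). It was 25.1% in DPsel-like cells (21.4% to 29.1%), 63.6% in CD4sp-like cells (59.4% to 67.7%) and 57.9% in CD8sp-like cells (52.1% to 63.5%). The DPsel-like value was a mean over unlike clusters. In DPsel-like cluster 2, led by Ikzf2, Cd69, Cd5 and Nr4a1, the share was 2.83% (1.15% to 5.75%), and in DPsel-like cluster 5, led by Itm2a, Cd40lg, Il7r and Bcl2, it was 46.7% (40.4% to 53.0%).

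**Figure D2:**
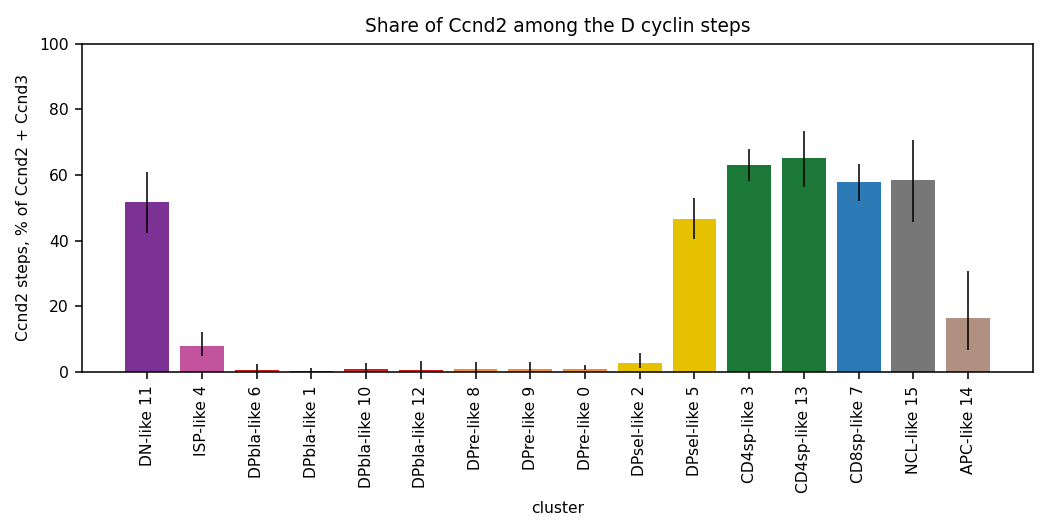
Percent of the summed Ccnd2 and Ccnd3 steps that belong to Ccnd2, by cluster, with exact binomial 95% intervals. The share is below 1% in DPbla-like and DPre-like cells pooled by class and differs between the DPsel-like clusters, at 2.83% and 46.7%.

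The levels of the cyclins differed between the DPsel-like clusters in opposite directions. Ccnd2 was at 0.0429 steps per cell in cluster 2 and 0.748 in cluster 5 (0.620 to 0.896), and Ccnd3 at 1.47 and 0.855. Both cyclins could be detected in the same cell, though doublets were not called and stray RNA from other cells was not estimated. Of the 229 CD4sp-like cells, 80 had both genes after thinning, 72 only Ccnd2, 42 only Ccnd3 and 35 neither. Ccnd3 was detected in 52.6% of the CD4sp-like cells with Ccnd2 and in 54.5% of those without, and in CD8sp-like cells in 58.7% and 57.1%. Among DN-like cells, 35.0% of those with Ccnd2 and 56.4% of those without had Ccnd3, with 40 and 39 cells behind the values.

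The kinases had their highest levels in different classes. Cdk6, which pairs with D-type cyclins and is needed for the growth of early thymocytes, was at 2.24 steps per cell in DN-like cells (1.92 to 2.60) and 0.522 in ISP-like cells (0.416 to 0.646). In all other classes it was between 0 and 0.143, the latter in DPsel-like cells (0.105 to 0.191). The 31 NCL-like cells held no thinned step of Cdk6, though before thinning 3 of them had the gene detected. Cdk6 was detected after thinning in 79.7% of DN-like and 36.6% of ISP-like cells, and before thinning in 96.2% and 87.6%.

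Cdk4, the other partner kinase, had its highest level in ISP-like cells, at 0.938 steps per cell (0.794 to 1.10). It was at 0.608 in DN-like cells (0.448 to 0.806), 0.460 in DPbla-like cells (0.402 to 0.524), 0.198 in DPre-like cells (0.160 to 0.241) and 0.407 in DPsel-like cells (0.340 to 0.483). CD4sp-like cells were at 0.306 and CD8sp-like cells at 0.351. DPre-like cells thus had the lowest Cdk4 value of the 9 classes, though the intervals of NCL-like (0.133 to 0.551) and APC-like cells (0.133 to 0.511) overlapped theirs. Within the DPbla-like class, Cdk4 was at 0.654 in cluster 6, led by the S phase genes Mcm5, Ung and Ccne2, and at 0.524 in cluster 1, led by Hist1h2ap and Rrm2. In clusters 10 and 12, led by the mitotic genes Ube2c and Cdc20, it was at 0.188 and 0.264.

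The CDK inhibitors were low in DN-like and ISP-like cells and higher in the double-positive classes. Cdkn1b was at 0.0633 steps per cell for DN-like and 0.0559 for ISP-like cells. DPbla-like cells had 0.169 (0.135 to 0.210) and DPre-like cells 0.300 (0.254 to 0.353), the highest level, followed by 0.199 for DPsel-like, 0.153 for CD4sp-like and 0.0878 for CD8sp-like cells. Cdkn2d was at 0.127 for DN-like and 0.236 for ISP-like cells, then at 0.729 among DPbla-like (0.656 to 0.809) and 0.516 among DPre-like cells (0.455 to 0.583), and between 0.335 and 0.399 in the DPsel-like and SP-like classes. Its peak therefore came 1 class earlier than that of Cdkn1b.

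Cdkn2d also differed among the DPbla-like clusters. It was at 0.242 steps per cell in cluster 6, 0.788 in cluster 1, 1.23 in cluster 10 and 0.958 in cluster 12. Cluster 6 had the highest mean score of S phase genes, 0.62, and a G2/M score of -0.01, and clusters 10 and 12 had G2/M scores of 0.92 and 0.93 (means of z scores over 42 S and 54 G2/M genes). The INK4 inhibitor was thus lower in the S phase cluster than in the G2/M clusters of the same class, whereas Cdk4 was higher there.

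Btg1 and Btg2, which slow proliferation in many cell types, were both lowest in ISP-like cells, at 0.298 (0.220 to 0.395) and 0.335 steps per cell (0.252 to 0.438). Btg1 was at 0.810 for DN-like and 0.965 for DPbla-like cells (0.880 to 1.06), then at 2.39 among DPre-like (2.26 to 2.53) and 2.22 among DPsel-like cells (2.06 to 2.39). CD4sp-like cells had 3.12 (2.89 to 3.36) and CD8sp-like cells 2.84 (2.57 to 3.12), so it was high in every class after the blasts. Btg2 was at 0.468 in DN-like cells, 0.554 in DPbla-like (0.490 to 0.624), 1.39 in DPre-like (1.28 to 1.49) and 0.637 in DPsel-like cells (0.552 to 0.730), with 0.507 for CD4sp-like and 0.541 for CD8sp-like cells. Btg2 thus had a single peak in the DPre-like class (NCL-like cells followed, at 0.968, with an interval of 0.653 to 1.38 that overlapped).

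Within the blasts, the Btg genes were higher in the mitotic clusters. Btg1 was at 0.922 and 0.694 steps per cell in clusters 6 and 1, and at 1.19 and 1.40 in clusters 10 and 12. Btg2 was at 0.373, 0.424, 0.625 and 1.15 in the same order. DPre-like cluster 8, with the most Mki67 of that class, was at 1.68 for Btg1 and 1.07 for Btg2, against 2.56 and 1.53 in DPre-like cluster 0 and 2.75 and 1.39 in DPre-like cluster 9.

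Neighbouring stages were then compared as a ratio of thinned steps per cell, with an exact conditional binomial 95% interval. A gene was called where the ratio reached 1.5-fold and the groups together had at least 50 steps. From DN-like to ISP-like cells, in the step that follows β-selection, 2 of the 8 genes were called higher and 3 lower, where 33.4% of all 1309 genes tested were called higher and 16.5% lower. Ccnd3 was 1.82-fold higher (1.35 to 2.48) and Cdk4 1.54-fold higher (1.11 to 2.18). Ccnd2 was 6.91-fold lower (4.03 to 12.4), Cdk6 4.29-fold lower (3.29 to 5.64) and Btg1 2.72-fold lower (1.84 to 4.04). With clustering at resolution 1 the ratio of Btg1 was 0.756 and that of Cdk4 1.29, both short of the limit, and Ccnd2 was at 0.0829 and Cdk6 at 0.149. The Cdk4 call was also lost with 30 principal components (1.495). By share of cells detected, Cdk4 (1.38) and Ccnd3 (1.46) were both short of the limit. The Btg2 ratio of 0.716 did not reach the limit, and Cdkn1b, with 14 steps, and Cdkn2d, with 48, were not counted. The median log2 ratio of all genes tested was 0.26.

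From DPbla-like to DPre-like cells, where division stops, 3 genes were called higher and 1 lower, against 24.8% and 16.7% of 4510 genes. Cdkn1b was 1.78-fold higher (1.35 to 2.35), Btg1 2.48-fold higher (2.22 to 2.76) and Btg2 2.50-fold higher (2.17 to 2.89). Cdk4 was 2.33-fold lower (1.83 to 2.98). The ratio of Ccnd3 was 0.982 (0.905 to 1.07), which reaches 1.5-fold in neither direction. Those of Cdk6, 0.828 (0.533 to 1.28), and Cdkn2d, 0.708 (0.601 to 0.833), did not reach the limit, and Ccnd2 had too few steps. Cdkn2d passed it, as lower, with resolution 1 (0.548), 30 principal components (0.665), unthinned steps (0.618) and another thinning seed (0.628), and Cdk6 with clustering on all variable genes (0.567) and 20 neighbors (0.563). DPre-like cells thus had a larger share of Btg1, Btg2 and Cdkn1b steps and a smaller share of Cdk4 steps than the blasts pooled. Ccnd3 was within its counting interval of equal by thinned steps. As deposited, its mean log2 value was 2.53 in DPre-like and 2.78 in DPbla-like cells. The Cdk4 difference lay against blast clusters 6 and 1, since clusters 10 and 12, at 0.188 and 0.264 steps per cell, were near the 0.198 of DPre-like cells. In blast cluster 12 Btg2, at 1.15, and Cdkn1b, at 0.25, were close to DPre-like cluster 8, at 1.07 and 0.258. Before thinning Cdkn1b was detected in 48.3% of DPbla-like and 36.1% of DPre-like cells, the other direction from its ratio. Without DPre-like cluster 8 the same counts of 3 and 1 were found, with Btg1 at 2.71 and Btg2 at 2.68. Median detected genes per cell before thinning were 2284 for DPbla-like and 1245.5 for DPre-like cells, and the part of this difference in the ratios was not tested beyond the thinning.

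From DPre-like to DPsel-like cells, 3 genes were called higher and 4 lower, against 12.6% and 14.9% of 4116 genes. Ccnd2 was 17.6-fold higher (9.53 to 36.2), Cdk4 2.06-fold higher (1.57 to 2.70) and Cdk6 1.73-fold higher (1.11 to 2.70). Btg2 was 2.18-fold lower (1.86 to 2.56), Ccnd3 2.02-fold lower (1.79 to 2.27), Cdkn2d 1.54-fold lower (1.22 to 1.95) and Cdkn1b 1.51-fold lower (1.12 to 2.06). The last pair lay at the edge of the limit, and both were short of it with unthinned steps (0.769 for Cdkn2d and 0.687 for Cdkn1b) and with another thinning seed, where Cdkn2d was at 0.683. Cdkn2d was also short of it with 30 principal components (0.678) and 20 neighbors (0.682). With another thinning seed Ccnd2 was 9.63-fold higher, and Cdk6, at 1.37, was no longer called, as with unthinned steps, at 1.43. Cdk6 was at 0.215 steps per cell in DPsel-like cluster 2 (0.150 to 0.299) and at 0.0692 in cluster 5 (0.0345 to 0.124), against 0.0827 in DPre-like cells, so the difference lay in cluster 2. For Ccnd2 it lay in cluster 5, which held 119 of the 126 DPsel-like steps and scored for CD4sp markers (0.696) as well as DPsel markers (0.879), and cluster 2 was at 0.0429 against 0.0222 in DPre-like cells. Btg1, at a ratio of 0.929 (0.845 to 1.02), did not follow Btg2.

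From DPsel-like to CD4sp-like and CD8sp-like cells pooled, 1 gene was called higher and 2 lower, against 9.11% and 10.4% of 3599 genes. Ccnd2 was 3.47-fold higher (2.85 to 4.25), Cdk6 1.80-fold lower (1.11 to 2.95) and Cdkn1b 1.56-fold lower (1.06 to 2.32). With another thinning seed the Cdk6 ratio was 0.876 and the call was lost, and cluster 2 held 35 of the 46 DPsel-like steps. The Cdkn1b call was lost with resolution 1 (0.710), 30 principal components (0.686) and 20 neighbors (0.724). The ratio was 1.35 for Btg1 (1.23 to 1.49) and 0.727 for Ccnd3, both short of the limit, as were 0.795 for Cdk4, 1.13 for Cdkn2d and 0.817 for Btg2. CD4sp-like cluster 13, led by Tnfrsf9 and Tnfrsf4, also scored for DPsel markers (0.44 against 0.35). Ccnd2 was at 1.25 there and at 1.56 in CD4sp-like cluster 3, and its ratio without cluster 13 was 3.53.

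**Figure D3:**
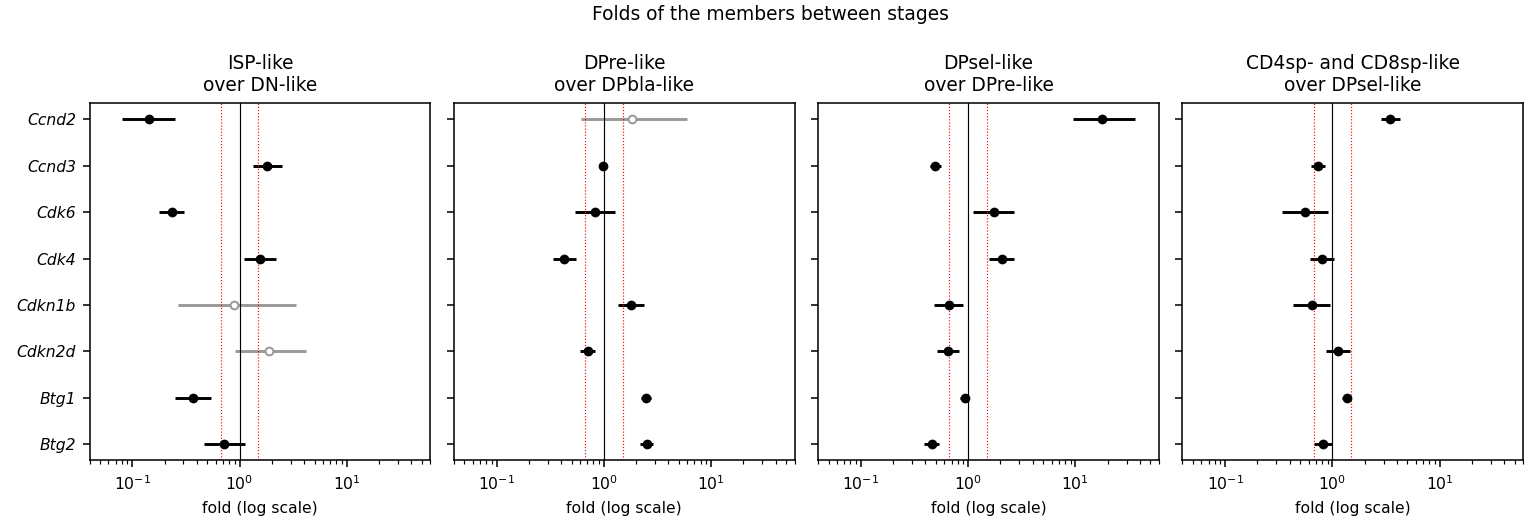
Ratio of thinned steps per cell between neighbouring stages for the 8 genes, 1 panel per comparison, on a log axis with 95% counting intervals. Dotted lines mark 1.5-fold in each direction and open grey points are genes with under 50 steps. Btg1, Btg2 and Cdkn1b lie above the upper line in DPre-like against DPbla-like cells, where Ccnd3 is at 0.982.

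The rest of the pathway was followed in a list of 45 genes, of which 42 were in the table (Cdkn2a, Cdkn2b and Btg4 were not). In DPre-like against DPbla-like cells 32 were tested, of which 7 were higher (24.8% of all genes), 15 lower (16.7%) and 10 not called, with a median log2 ratio of -0.30 against 0.15 for all genes. Of 7 G1 cyclins and kinases, 5 were lower and none higher: Ccne1 by 10.5-fold and Ccne2 by 10.4-fold, the E-type cyclins that act after the D-type cyclins, their kinase Cdk2 by 3.16-fold, its subunit Cks1b by 4.22-fold and the activating phosphatase Cdc25a by 2.36-fold. All 7 cycling markers were lower, from Mcm2 at 3.38-fold to Ccna2 at 13.7-fold, among them Mki67 at 6.20-fold, Top2a at 13.2-fold, Pcna at 7.15-fold, Mcm5 at 5.16-fold and Ccnb1 at 6.15-fold. Mki67 and Top2a were among the markers that named the DPbla-like class, and the Mki67 limit set clusters of dividing cells apart. The direction of the cycling markers, and of other genes that follow the cell cycle, is thus tied to the naming.

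The inhibitors did not move as a group. Cdkn2c, the INK4 gene related to Cdkn2d and the only listed CDK inhibitor with enough steps, was 6.38-fold lower, where Cdkn1b was higher. Among 5 genes of p27 turnover, 2 were lower (16.7% of all genes) and none higher. Skp2, the F-box protein that marks p27 for degradation, was 4.24-fold lower and its partner Cul1 2.57-fold lower. Skp1a, at a ratio of 1.04, Rbx1, at 0.885, and Fbxw7, at 1.04, were not called. Of 8 tested genes of the BTG/TOB family and CCR4-NOT, 3 were higher (24.8% of all genes) and none lower: Cnot7 by 1.52-fold and Cnot8 by 1.68-fold, which are deadenylase subunits bound by Btg proteins, and Tob2 by 1.57-fold (0.966 to 2.59, an interval that includes 1). In the SP-like classes against DPsel-like cells none of 7 tested genes of this group was higher (9.11% of all genes) and 3 were lower (10.4% of all genes), Cnot2, Cnot6l and Cnot8, the last with an interval of 0.367 to 1.08 that includes 1. In DPre-like against DPbla-like cells all 4 tested genes of the quiescence list were higher (24.8% of all genes), Foxp1 by 1.79-fold, Klf13 by 2.51-fold, Slfn2 by 2.47-fold and Tsc22d3 by 2.90-fold.

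The same list was counted in the other comparisons, beside the shares of all genes given for them above. In ISP-like against DN-like cells, 6 of 11 tested genes were higher (33.4% of all genes), Cks1b and 5 cycling markers. The direction of the cycling markers is tied to the Mki67 limit here too. The 2 lower genes (16.5%) were Foxp1 and Cnot6l, the latter with an interval of 0.361 to 1.11 that includes 1. In DPsel-like against DPre-like cells, 3 of 26 were higher (12.6% of all genes) and 8 lower (14.9%). Of the quiescence list, Klf2 was 4.42-fold and Foxo1 1.60-fold higher (0.907 to 2.82, which includes 1), and Klf13 was 1.76-fold and Tsc22d3 2.78-fold lower. In the SP-like classes against DPsel-like cells, 6 of 20 were higher (9.11% of all genes) and 5 lower (10.4%). The higher ones were Klf2 at 9.89-fold, Tsc22d3 at 2.56-fold, Foxo1 at 2.38-fold and Slfn2 at 2.29-fold, of the quiescence list, the CDK-activating kinase subunit Mnat1 at 1.91-fold, and the cycling marker Top2a at 1.94-fold (1.27 to 3.02). Klf2 and Foxo1 encode transcription factors of mature, resting T cells.

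Over the 16 clusters, the log2 levels of Ccnd2 and Ccnd3 were related with Pearson's r of -0.93, and those of Cdk4 and Btg2 with -0.77. Cdkn1b and Btg2 gave 0.77, Ccnd3 and Cdkn2d 0.75, and Cdk6 and Cdk4 0.61. All clusters come from 1 library and differ in depth, so these values are descriptions. The genes most like each member over the same clusters were Ptpn18, Bcl2 and Klk8 for Ccnd2 (each 0.90), Rtn3 (0.95), Ap3s1 (0.91) and Endou (0.90) for Ccnd3, and Mtf2 (0.93), Fam169b (0.84) and Gstp1 (0.83) for Cdk6. For Cdk4 they were Romo1 (0.90), Eif5a and Hsp90ab1 (both 0.88), for Cdkn1b Ntrk3 and Eif1 (both 0.84) and Socs1 (0.83), and for Cdkn2d Gm8797 and Ubb (both 0.90) and Ubald2 (0.89). Jund and Grap (both 0.90) and Dock2 (0.89) were closest to Btg1, and Tmem234 and Xrn1 (both 0.88) and Il21r (0.85) to Btg2. Endou is itself a DPre marker used for the class names.

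Promoter windows from RefSeq (GRCm38.p6), 250 bases before to 50 after a transcription start, were matched for 7 of the 8 genes, with 2 starts for Ccnd3. Both strands were searched for 6 motifs: E2F (TTTGGCGC or TTTCGCGC), the Myc E box (CACGTG), the E protein E box (CAGCTG), Stat5 (TTCNNNGAA), FoxO (TGTTTAC) and Rbpj (TGGGAA). The Myc E box was in 7.15% of 32851 windows, and the Cdk4 window held 4 copies, beginning 172, 118, 98 and 11 bases before the start, where 8 windows (0.0244%) hold 4 or more. That window is shown because Cdk4 was the member with its highest level in the ISP-like class. TGTTTAC was in 3.65% of windows, among them those of Btg1, 204 bases before the start, and the first start of Ccnd3, 243 before, and both are shown as the members with this motif. Of the other members with high levels in DPre-like cells, Btg2 and Cdkn1b had no match. Each sequence covers the 250 bases before the start, 5′ to 3′ on the plus strand, at chr10:127063285-127063534 (Cdk4), chr10:96616751-96617000 (Btg1) and chr17:47504801-47505050 (Ccnd3), with motif matches in capitals.
Cdk4: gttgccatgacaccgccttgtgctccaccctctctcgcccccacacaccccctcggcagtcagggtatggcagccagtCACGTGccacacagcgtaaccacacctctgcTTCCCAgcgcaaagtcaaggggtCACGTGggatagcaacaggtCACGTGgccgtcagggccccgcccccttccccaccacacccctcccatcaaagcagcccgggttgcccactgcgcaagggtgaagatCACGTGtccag
Btg1: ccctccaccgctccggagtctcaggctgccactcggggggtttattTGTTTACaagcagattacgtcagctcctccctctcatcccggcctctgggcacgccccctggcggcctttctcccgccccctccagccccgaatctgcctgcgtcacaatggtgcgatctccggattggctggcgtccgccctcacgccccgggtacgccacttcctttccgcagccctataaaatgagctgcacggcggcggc
Ccnd3: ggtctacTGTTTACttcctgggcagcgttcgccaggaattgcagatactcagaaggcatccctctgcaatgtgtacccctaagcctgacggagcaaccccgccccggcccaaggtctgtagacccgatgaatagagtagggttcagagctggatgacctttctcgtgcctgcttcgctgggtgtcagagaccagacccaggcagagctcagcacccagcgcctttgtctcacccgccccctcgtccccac

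In the Cdk4 sequence the remaining capitals are TGGGAA read on the minus strand, 141 bases before the start. The Cdk6 window held 1 CACGTG, 220 bases before its start, and TGGGAA, found in 25.6% of windows, lay on the minus strand 176 bases before the start of Btg2 and 209 before that of Cdkn2d. No member window held an E2F match (0.813% of windows), CAGCTG (16.3%) or TTCNNNGAA (8.3%), and the windows of Cdkn1b and of the second Ccnd3 start held none of the 6. A match of letters is a description and says nothing of binding.

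Open chromatin at the 8 genes was read from raw counts in peaks 4000 bp wide, with each peak given to the protein-coding gene of the nearest transcription start (GENCODE vM21, GRCm38). Ccnd2 (chr6:127125162-127152193, minus strand) had 12 peaks that did not overlap one another, Ccnd3 (chr17:47505051-47599691, plus) 9 and Cdk6 (chr5:3341485-3531008, plus) 13. Cdk4 (chr10:127063534-127067920, plus) and Cdkn2d (chr9:21288410-21291407, minus) had 1 each, and Cdkn1b (chr6:134920401-134925513, plus) and Btg2 (chr1:134075170-134079120, minus) 5 each. Btg1 (chr10:96617006-96622809, plus), with few genes around it, had 40. Median counts in peaks per cell were 3377.5 in DN, 3866 in DP, 2571 in CD4 and 3935.5 in CD8 sorted cells, and single cells ranged from 1 to 29445. Levels are counts per 10000 counts in peaks, summed over the cells of a sort. A sort holds several of the RNA classes, so the DP sort takes in blasts and resting cells together.

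At Ccnd2 the level was 1.94 in DN, 1.12 in DP, 1.58 in CD4 and 1.56 in CD8 sorted cells. The locus was lowest in DP cells, the sort that holds the classes with least Ccnd2 RNA. DP over DN was 0.578 (0.380 to 0.858) and SP, that is CD4 and CD8 cells pooled, over DP was 1.40 (0.934 to 2.16). Cells carry label numbers in blocks. The block from 4000 held 32 DN, 64 DP and 160 SP cells, and that from 31000 held 24, 29 and 75. Most of the 182 DN cells lay in neither, so a pooled DP over DN ratio also compares label blocks. Within the block from 4000 DP over DN was 0.572 (0.287 to 1.12) and SP over DP 1.68 (0.994 to 3.00). The block from 31000 held 4 DN, 2 DP and 5 SP counts at Ccnd2. In a single DP cell lay 8 of the 32 DP counts, and without it SP over DP was 1.83 (1.16 to 2.98). In the 5 peaks over the gene and 10 kb around it, SP over DP was 2.63 (1.17 to 6.94), from 41 and 7 counts, and DP was 4.45-fold lower than DN (2.05 to 11.5).

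At Ccnd3 the level was 2.60 in DN, 3.64 in DP, 2.76 in CD4 and 2.74 in CD8 sorted cells, so it was highest in DP cells, the sort with the lowest level at Ccnd2. DP over DN was 1.40 (1.09 to 1.79) and SP over DP 0.755 (0.589 to 0.972). Over the gene body and 10 kb around it the ratios were 1.16 and 0.909. Within the label blocks from 4000 and 31000 DP over DN was 0.959 (0.639 to 1.45) and 0.891 (0.336 to 2.25), so the pooled DP over DN difference was not seen within blocks. SP over DP was 0.858 (0.631 to 1.18) and 0.545 (0.211 to 1.47) there, intervals that both include 1. At the second RefSeq start of Ccnd3, base 47593467 of chromosome 17, the peak chr17:47591473-47595472, nearest by the assignment to Bysl, had SP over DP at 0.785 (0.369 to 1.75).

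At Cdk6 the level was 1.20 in DN, 3.22 in DP, 0.645 in CD4 and 1.02 in CD8 sorted cells. The DP value rested on 1 cell, which held 52 of the 92 DP counts, all in the peak at the start, and 0 in the peaks next to it. Without that cell the DP level was 1.42, DP over DN went from 2.69 (1.97 to 3.69) to 1.19 (0.789 to 1.76), and SP over DP from 0.254 (0.177 to 0.360) to 0.576 (0.374 to 0.893). The block from 4000 does not hold that cell, and there DP over DN was 0.967 (0.476 to 2.00) and SP over DP 0.780 (0.458 to 1.38). The block from 31000 held 1 DN, 4 DP and 0 SP counts. The cause of the count in that cell was not tested. Cdk6 RNA was highest in DN-like cells, and the locus level in DN sorted cells was not above that of DP sorted cells with or without this cell.

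Cdk4 and Cdkn2d had 1 peak each. Cdk4 was at 0.939 in DN, 0.981 in DP, 0.850 in CD4 and 0.745 in CD8 sorted cells, and Cdkn2d at 1.79, 1.54, 2.14 and 1.93. Cdkn1b was at 1.5, 1.75, 1.99 and 2.13 in the same order, with SP over DP at 1.18 (0.843 to 1.66). For these 3 genes every ratio between DP and its neighbours had an interval that included 1 over all cells. Within the block from 31000 Cdk4 DP over DN was 0.241 (0.0451 to 0.843), from 3 and 16 counts, and 1.47 (0.651 to 3.54) within that from 4000. A single DN cell held 7 of those 16 counts. Cdkn2d SP over DP was 0.545 (0.0923 to 3.72) in the block from 31000, from 4 and 3 counts, and 1.35 (0.891 to 2.11) in the block from 4000.

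At Btg1 the level was 4.75 in DN, 8.37 in DP, 7.65 in CD4 and 6.64 in CD8 sorted cells. DP over DN was 1.76 (1.48 to 2.09), with 1.83 (1.32 to 2.57) and 2.67 (1.36 to 5.46) within the blocks from 4000 and 31000. SP over DP was 0.858 (0.732 to 1.01), and 0.611 (0.466 to 0.802) over the gene body and 10 kb around it, where Btg1 RNA in the SP-like classes was above that of the DP classes. Btg2 was at 4.38, 4.90, 4.22 and 4.68. In 1 DN cell lay 76 of the 289 DN counts at Btg2, and without it DP over DN went from 1.12 (0.909 to 1.38) to 1.5 (1.20 to 1.87). Within the blocks from 4000 and 31000 it was 1.17 (0.826 to 1.66) and 1.64 (0.691 to 3.99), intervals that both include 1. Plated total thymocytes, with a median of 5792 counts per cell, were at 0.826 for Ccnd2, 5.57 for Ccnd3, 0.631 for Cdk6, 1.24 for Cdk4, 2.43 for Cdkn1b, 3.37 for Cdkn2d, 6.34 for Btg1 and 6.17 for Btg2. No ratio to the sorts was computed. Total thymocytes lay above every sort at Ccnd3, Cdk4, Cdkn1b, Cdkn2d and Btg2 and below every sort at Ccnd2 and Cdk6. A mixture of the sorts would lie between them, so levels also differed between samples apart from the sort. The source was not tested.

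**Figure D4:**
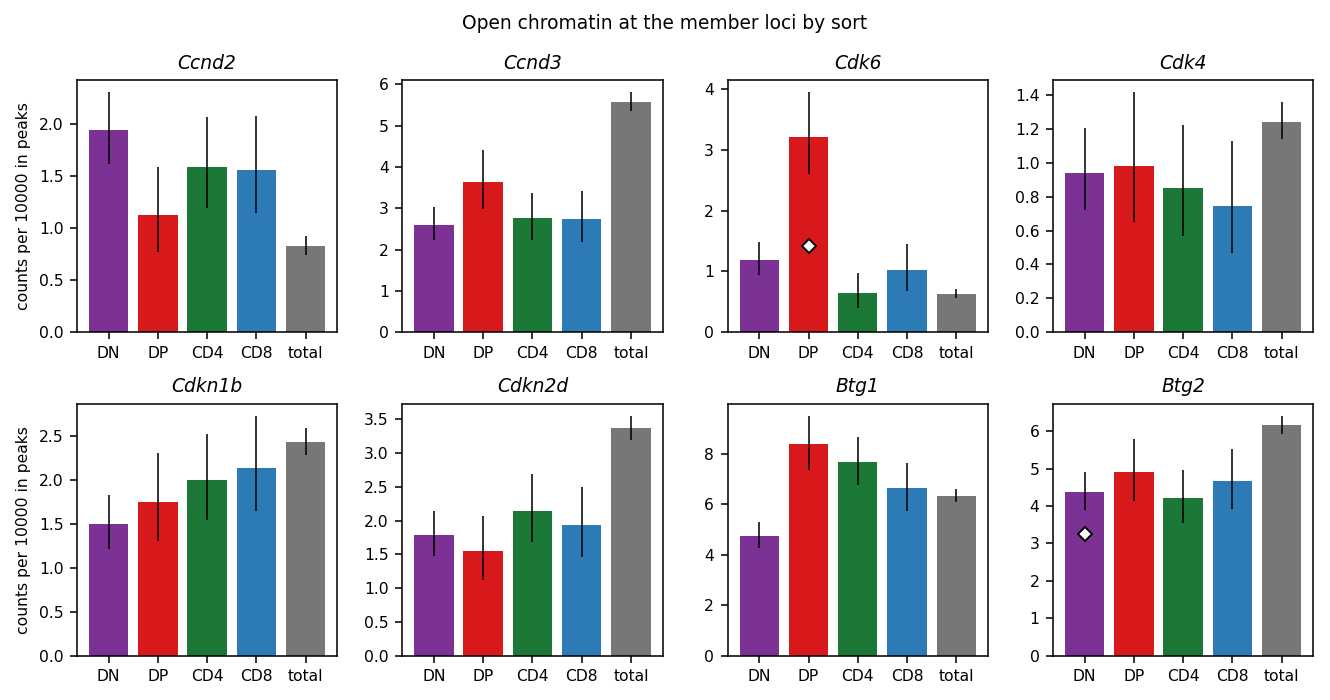
Counts per 10000 counts in peaks at each of the 8 loci in DN, DP, CD4 and CD8 sorted cells and plated total thymocytes, with 95% counting intervals. Open diamonds give Cdk6 in DP cells (1.42) and Btg2 in DN cells (3.27) without the single cell with the most counts.

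Of the 86 peaks, 15 had at least 50 counts in SP and DP cells together, 1 of which was at least 1.5-fold higher in SP and 5 lower, where 15.3% of all 4706 such peaks were higher and 15.8% lower. The higher one, near Cdkn1b, was at 1.67 (0.910 to 3.26), an interval that includes 1. In DP against DN cells 14 peaks were tested, of which 4 were higher and 1 lower, against 20.5% and 11.9% of 4703 peaks. These shares are close to the background for peaks higher in DP than in DN. Their median log2 ratio was 0.08 against 0.13 for all peaks, and for SP over DP it was -0.29 against -0.04.

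The Ccnd2 start peak (chr6:127150539-127154538) had a count in 18.1% of DN cells, 4.8% of DP, 8.40% of CD4 and 5.17% of CD8 cells. DN cells thus stood above all other sorts, and the 49 DN counts against 6 in DP made DP 3.53-fold lower (1.51 to 10.1), or 3.08-fold without the DN cell with the most counts. Within the block from 4000 the ratio was 0.422 (0.128 to 1.25), from 6 and 11 counts. SP cells, at 11 and 7 counts, did not return to the DN level.

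The Btg1 start peak (chr10:96614832-96618831) had a count in 35.7% of DN, 36.0% of DP, 34.5% of CD4 and 18.1% of CD8 cells. CD8 cells were the low ones, and SP over DP was 0.627 (0.442 to 0.894), with 0.773 (0.485 to 1.27) and 0.636 (0.257 to 1.67) within the blocks from 4000 and 31000. A peak 108 kb downstream of the Btg1 start (chr10:96723048-96727047) had a count in 14.3%, 22.4%, 18.5% and 11.2% of cells. It was highest in DP cells, with DP over DN at 3.03 (1.82 to 5.10) and SP over DP at 0.484 (0.304 to 0.774), but within the block from 4000 both were closer to 1, with DP over DN at 1.55 (0.585 to 4.53) and SP over DP at 0.814 (0.431 to 1.63). From 38 SP and 14 DP counts, the second did not hold there, and the block from 31000 held 1 DN, 4 DP and 3 SP counts.

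A peak 11.7 kb downstream of the Btg2 start (chr1:134065396-134069395) had a count in 20.9% of DN, 24.0% of DP, 12.6% of CD4 and 16.4% of CD8 cells. DP over DN was 1.77 (1.15 to 2.69) and SP over DP 0.556 (0.363 to 0.855), and within the block from 4000 they were 1.24 (0.623 to 2.54) and 0.513 (0.302 to 0.887). In the block from 31000 lay 3 DN, 2 DP and 11 SP counts, too few to give a direction. An intronic Ccnd3 peak 26.6 kb from the first start (chr17:47529617-47533616) had a count in 18.7%, 20.8%, 16.0% and 15.5% of cells. Its DP over DN ratio of 1.84 (1.15 to 2.94) was 1.74 within the block from 4000 (0.720 to 4.63), and its SP over DP ratio of 0.577 (0.363 to 0.925) was 0.683 (0.384 to 1.26), while the block from 31000 held 5 DN, 2 DP and 4 SP counts.

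The Cdk6 start peak (chr5:3340191-3344190) had a count in 7.69% of DN, 11.2% of DP, 3.36% of CD4 and 3.45% of CD8 cells, or 14, 14, 4 and 4 cells. SP was 18.6-fold lower than DP over all cells and 5.76-fold lower without the DP cell with 52 counts, and DP over DN was 10.8 (6.26 to 19.9) with it and 3.37 (1.70 to 6.82) without it, then from under 50 counts. Within the block from 4000 SP over DP was 0.225 (0.0837 to 0.582) and DP over DN 4.64 (1.03 to 42.7), from 2 DN, 12 DP and 9 SP counts. The start peaks of Cdk4, Cdkn1b, Cdkn2d and Btg2 were not past 1.5-fold, with SP over DP at 0.817, 1.11, 1.33 and 1.15 and DP over DN at 1.04, 1.06, 0.863 and 0.968.

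**Figure D5:**
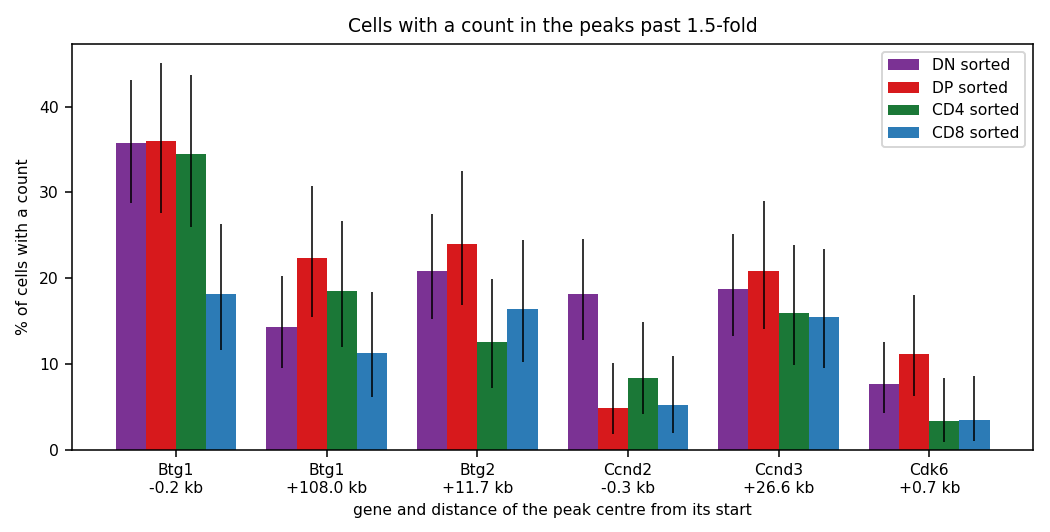
Percent of cells with at least 1 count in the 6 peaks that passed 1.5-fold with an interval that excludes 1, in DN, DP, CD4 and CD8 sorted cells, with exact binomial 95% intervals. The Ccnd2 start peak is highest in DN cells at 18.1% and the Btg1 start peak lowest in CD8 cells at 18.1%.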

How the data were processed

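The 8 genes, the pathway list, the marker lists and the motifs were chosen with earlier results of these data known. The authors aligned the droplet reads with Cell Ranger 1.3.1 (GRCm38.p5, per the submitters' processing notes), removed cells and genes of low quality, quantile normalised the rest and deposited them as log2 values, 79.7% of them 0. For scATAC-seq, the authors mapped trimmed reads with Bowtie2, used Picard to remove duplicates and MACS2 to call peaks on merged cells, and deposited the raw counts of each cell in each peak. How a read in overlapping peaks was counted is not given in the sources used here. Of 53103 peaks covered by both neighbours, 9766 had more counts than both neighbours together, so sums used 62552 non-overlapping peaks taken in order of total counts. The build of the peaks was checked: 22.5% of centers lay within 2 kb of a GRCm38 transcription start, and 6.21% after a shift of 100000 bp.

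Clustering was run in Seurat 5.3.0 under R 4.3.3 (means 0.025 to 3, dispersion at least 0.5, 20 principal components, 30 neighbors, resolution 2) without the members and the pathway list. Each cluster was named for the class whose markers had the highest mean z score there, and names are those of rebuilt clusters. The Mki67 limit was set with the clusters of earlier work known. Doublets were not called. Steps understate highly expressed genes. Ratios, intervals and correlations (log2 of mean steps per cell + 0.05, genes with at least 200 steps) were computed with numpy 2.4.6, pandas 2.3.3 and scipy 1.17.1 in Python 3.11.15, and the ratio and interval code was tested on simulated data. Of the scATAC-seq cells, 1626 were used, and 362, chiefly total thymocytes whose label has no plate number, were not. Named genes were the 8 members, pathway genes past 1.5-fold between DPbla-like and DPre-like cells, the 3 most alike genes per member, and locus peaks past 1.5-fold with an interval that excludes 1. Other pathway genes were named after their values were seen. Alternatives changed the clustering, thinning, fold limit, minimum, peak assignment, peak overlap, cell scaling and label block, and 3 were added after seeing the data: the SP-like comparison without CD4sp-like cluster 13, the DPre-like comparisons without cluster 8, and each locus without the single cell with the most counts.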

Additional observations from a re-analysis of the deposited data

How the results depend on the processing

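With 1 library and 1 sample per sort, no spread between animals could be measured. No paired analysis was possible because each sort is 1 sample with no replicates to pair, and the label blocks were compared only as values within each block. Of 280 alternative values of the ratios between stages, 268 stayed within the counting interval and 12 left it. No called ratio changed direction, but Cdkn2d in ISP-like over DN-like cells, not called for its 48 steps, went from 1.86 to 0.876 with clustering on all variable genes. Cdkn1b, also with too few steps there, went from 0.883 to 1.60 with resolution 1, 1.29 with 20 neighbors and 1.09 with 30 principal components. Of 128 at the loci, 109 stayed and 18 left it, and 1 past 1.5-fold changed direction, the Cdk6 ratio of DP over DN, which was 0.967 within the label numbers from 4000. The cause was not tested.

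In DPre-like over DPbla-like cells, Cdkn2d was at 0.548 with resolution 1. As ratios of the share of cells detected, Btg1 was at 1.46, short of the limit, and Btg2 at 1.76. The number of members called higher in ISP-like over DN-like cells was 0 with a fold of 2 or by share of cells and 1 with resolution 1 or 30 principal components. The number lower in DPre-like over DPbla-like cells was 2 with clustering on all variable genes, resolution 1, 30 principal components, 20 neighbors, unthinned steps or another thinning seed. In DPsel-like over DPre-like cells it was 2 with a fold of 2, unthinned steps or another seed and 1 by share of cells. In the SP-like classes over DPsel-like cells it was 0 with a fold of 2 and 1 with resolution 1, 30 principal components, 20 neighbors or another seed.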
